A study of Mus musculus with 9 samples.

Results

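Transcripts of 10 genes for heat shock proteins were followed across mouse embryonic lung before and after culture. The genes were taken by their symbols, Hsp90aa1, Hsp90ab1, Hspa8, Hspa1a, Hspa1b, Hsph1, Dnajb1, Hspb1, Hspb8 and Hspe1, out of 55286 genes in the deposited tables, and all 10 were found. RNA was sequenced from wild-type mouse lungs in 3 groups of 3 libraries. Fresh lungs were taken at embryonic day E11.5, when the first airway branches form. Lungs of that age were also kept as explants for 72 h in culture, either as controls (Control) or with EPZ5676. EPZ5676, also named pinometostat, is a small molecule that inhibits DOT1L, the methyltransferase of lysine 79 on histone H3, and its dose is not given in the labels. The labels do not name separate embryos or cultures for the libraries of a group, so the p-values speak of the spread between libraries, part of which may be technical.

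Heat shock proteins are chaperones that bind unfolded or partly folded proteins. HSP70 proteins (Hspa8, Hspa1a, Hspa1b) cycle with J-domain partners such as Dnajb1 and with exchange factors such as Hsph1, and pass some clients to HSP90 (Hsp90aa1, Hsp90ab1), while small heat shock proteins (Hspb1, Hspb8) hold unfolded proteins without using ATP. Hspa8 and Hsp90ab1 are made in most cells at all times, whereas Hspa1a, Hspa1b, Dnajb1, Hspb1 and Hsph1 are classic targets of heat shock factor 1 (HSF1), which binds inverted repeats of the letters GAA and TTC in their promoters after stress. These proteins work in the cytosol and nucleus, with the exception of Hspe1, the lid of the mitochondrial chaperonin, whose partner is Hspd1; the name cytosolic therefore does not hold for Hspe1.

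The promoter stretches that hold such repeats are shown because they are the best known control sequence of this gene group. They come from the RefSeq table of promoters for GRCm38.p6, which spans 250 bases before to 50 bases after each gene's start and holds 7 of the 10 genes; Hspa8, Hsp90aa1 and Hsp90ab1 had no entry. Capitals mark the matches to GAANNTTC or TTCNNGAA (a pair of repeats), or to GAANNTTCNNGAA or TTCNNGAANNTTC (3 repeats), searched on both strands, where N is any base and longer matches contain shorter ones. Each stretch reads 5′ to 3′ along the gene's strand, and those of Hsph1 and Hspe1 are limited to 30 bases because they overlap annotated first exons, of Hsph1 itself and of Hspd1.
Hspa1a (chr17:34972187-34972306, minus strand): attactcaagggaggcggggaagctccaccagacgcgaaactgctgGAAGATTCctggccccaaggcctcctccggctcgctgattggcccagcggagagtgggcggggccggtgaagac
Hspb1 (chr5:135887769-135887888, plus strand): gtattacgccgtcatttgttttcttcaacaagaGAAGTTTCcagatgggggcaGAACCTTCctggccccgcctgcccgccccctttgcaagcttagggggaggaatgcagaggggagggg
Hsph1 (chr5:149636351-149636380, minus strand): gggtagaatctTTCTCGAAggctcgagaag
Hspe1 (chr1:55088053-55088082, plus strand): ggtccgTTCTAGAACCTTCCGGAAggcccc

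Hspe1 carried 2 overlapping matches of 3 repeats. They lie inside the gene model of Hspd1, which is read from the opposite strand and overlaps that of Hspe1 by 112 bases in GENCODE M21 (GRCm38). Hsph1 carried the match of 3 repeats TTCTGGAAAGTTC after its start in the promoter table, beginning at base 37 from that start, beside the marked pair. GENCODE M21 places the start of Hsph1 further upstream. A match of 3 repeats was present in 198 of 32851 promoters of the same 300-base window (0.603%). A pair of repeats was far more common, in 4946 promoters (15.1%), and was present in Hspa1a, Hspa1b, Hspb1, Hspb8, Hsph1 and Hspe1. Dnajb1 held neither form in this window. The windows of Hspa1a and Hspa1b, whose gene bodies lie 9951 bases apart on chromosome 17, were identical at 98.7% of 300 positions. They differed by C44T, T47C, T249G and C276T, counted from the first base of the window with the base of Hspa1a first, so the stretch printed for Hspa1a is the same in Hspa1b. A match describes letters only, since binding of HSF1 was not measured here.

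Libraries held 6509563 to 9861452 expected counts, which are reads divided by estimation among genes that share sequence. Cell type markers moved with the groups. Markers of red blood cells summed to 16709 to 23858 TPM (a transcript level scaled for length and depth) in fresh lung and to 62.9 to 944 in the cultured libraries. The 7 endothelial markers summed to 180 to 199 TPM in fresh lung and 12.9 to 75.8 in culture, the 10 lung epithelial markers to 324 to 345 and 557 to 1107, the 9 mesenchymal markers to 709 to 848 and 982 to 1545, the 8 smooth muscle markers to 218 to 427 and 398 to 838, and the 8 macrophage markers to 30.1 to 51.1 and 134 to 284. Of all these markers, 1 of the 7 red blood cell genes was at 0 in 2 control libraries, and no other was at 0. Control library 1 stood apart with 227 TPM of liver markers against at most 24.4 in any other library, and with 206 TPM of heart muscle markers against at most 99.98. The part of these shifts in the heat shock protein values was not tested, and in bulk tissue fewer cells of a type and less RNA per cell cannot be told apart.

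Some members share reads with near-identical genes, which bears on how far their values can be trusted. By windows of 50 bases in the transcripts of GENCODE M21, Hspa1a shared 66.3% of its sequence with other genes and Hspa1b 62.3%, mostly with each other, so their sum is given beside each. Hspa8 shared 64.4% with Gm15459, a processed pseudogene on chromosome 5 (GRCm38, chr5:5781615-5783555), which was assigned 3688 to 5672 counts, or 49.6% to 60.5% of the Hspa8 count in the same library. Hspe1 shared 35.2% with AC117239.2, which was assigned 138 to 577 counts, or 12.5% to 44.6% of the Hspe1 count. In none of the 9 libraries was the Hspe1 count within 0.02 of a whole number, whereas its sum with AC117239.2 was in 8 of 9. The sum of Hspa8 and Gm15459 was so in 1 of 9, as was Hspa8 alone, and that of Hspa1a and Hspa1b in 3 of 9. Gm15459 and AC117239.2 were chosen after their values were seen. Hspb1 and Hsp90aa1 each shared 50.1% with other genes, but their closest copies, Hsp25-ps1 and Gm12346, held at most 2.29 and 12.2 counts. Hspb8 and Hsph1 shared no window, and Dnajb1 (0.412%) and Hsp90ab1 (4.13%) shared few.

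The 10 genes covered more than 3 orders of magnitude in TPM and stood in the same order by mean TPM in all 3 groups. From highest to lowest the order was Hsp90ab1, Hspa8, Hsp90aa1, Hspe1, Hsph1, Dnajb1, Hspb8, Hspb1, Hspa1b and Hspa1a. In fresh lung Hsp90ab1 reached 2392 ± 127 TPM (SD, n = 3) and Hspa1a 0.42 ± 0.26 (SD, n = 3). Hspb8 overlapped its lower neighbour Hspb1 in every group, Hspa8 overlapped Hsp90aa1 in fresh lung, and in control explants Hsp90ab1 overlapped Hspa8 and Dnajb1 overlapped Hspb8. The other neighbours did not overlap within a group. Summed over the 10 genes, these transcripts made up 0.519% to 0.590% of all TPM in the fresh libraries. The share was lower in every cultured library, at 0.321% to 0.426% in control and 0.382% to 0.444% in EPZ5676 explants. It is made up mostly of Hsp90ab1, Hspa8, Hsp90aa1 and Hspe1, so it says little of the members at low TPM. It is also a TPM measure, by which the HSP90 genes fell further than by counts.

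**Figure D1:**
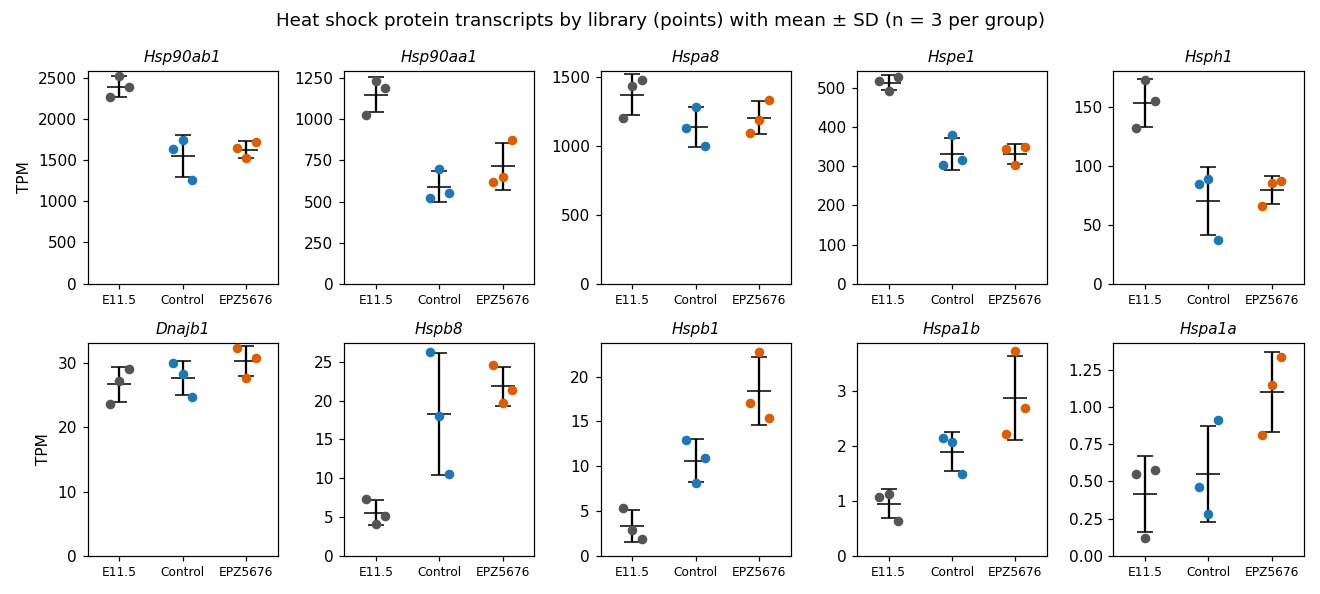
TPM of each of the 10 genes (vertical axes, each starting at 0) in the 9 libraries, as points by group, with bars for mean ± SD (n = 3 per group). Hsp90ab1, Hsp90aa1, Hspe1 and Hsph1 were lower in all cultured libraries than in all fresh ones, and Hspb8, Hspb1 and Hspa1b were higher.

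In control explants compared with fresh lung, transcripts of the HSP90 genes, Hsph1 and Hspe1 fell, and those of the small heat shock protein genes and Hspa1b rose. Of the 10 members, 7 passed an adjusted p of 0.05 in edgeR, 3 higher and 4 lower. This must be read against the 15158 genes tested, of which 37.7% passed, 21.1% higher and 16.6% lower. The same 7 members had TPM values that did not overlap between the groups, 3 higher and 4 lower, which held for 44.4% of all genes tested, 19.8% higher and 24.6% lower. At an unadjusted p under 0.05 there were 7 members, against 47.1% of all genes. The members' median log2 fold change was -0.10, against 0.02 over all genes.

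Both HSP90 genes fell. Hsp90ab1, the constitutive form, was measured at 2267, 2521 and 2387 TPM in fresh libraries 1, 2 and 3, and at 1631, 1748 and 1262 TPM in control libraries 1, 2 and 3. Hsp90aa1, the more inducible form, was measured at 1030, 1234 and 1190 TPM in fresh lung and at 522, 699 and 549 TPM in the controls. In neither gene did a control library reach the lowest fresh one. By counts the log2 fold change was -0.42 ± 0.10 (SE) for Hsp90ab1 (adjusted p = 0.0089, edgeR) and -0.75 ± 0.18 for Hsp90aa1 (adjusted p = 0.0073). Both calls were kept in all 21 alternative analyses.

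Of Hspa8, Hsph1 and Dnajb1, only Hsph1 passed. Hspa8, by far the most abundant of these genes, stood at 1202, 1434 and 1477 TPM in fresh lung. In the controls it stood at 1133, 1283 and 996 TPM, with overlapping groups. Its log2 fold change of -0.29 ± 0.14 (SE) did not pass (adjusted p = 0.134, edgeR), nor did that of Hspa8 and Gm15459 summed (-0.34 ± 0.15, adjusted p = 0.102). Hsph1, the HSP110 exchange factor that recycles HSP70, was at 132, 173 and 155 TPM in fresh lung and at 84.5, 89.1 and 36.9 TPM in the controls. Every control library lay below every fresh one, with control library 3 lowest, and the log2 fold change was -1.14 ± 0.25 (SE, adjusted p = 0.0060, edgeR). Dnajb1, a J-domain partner of HSP70, did not pass: it was measured at 23.7, 27.2 and 29.2 TPM in fresh lung and 30.02, 28.3 and 24.7 TPM in the controls (log2 fold change 0.10 ± 0.10, 95% interval -0.13 to 0.32).

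The stress-inducible HSP70 pair was close to the limit of detection. Hspa1b stood at 1.07, 1.12 and 0.64 TPM in fresh lung and at 2.13, 2.07 and 1.48 TPM in the controls. Hspa1a stood at 0.55, 0.12 and 0.58 TPM and at 0.46, 0.28 and 0.91 TPM, so its groups overlapped where those of Hspa1b did not. The log2 fold change of Hspa1b was 1.05 ± 0.35 (SE, adjusted p = 0.0378, edgeR), and 10 of 19 alternatives lost this call, with adjusted p from 0.0334 to 0.143. The losses came with no filter, DESeq2, limma on TPM, and on leaving out fresh library 1, 2 or 3, control library 1 or 2 or EPZ5676 library 3. Summing both genes, which together held only 14 to 61.3 counts per library, gave 1.62, 1.24 and 1.22 TPM in fresh lung and 2.59, 2.35 and 2.39 TPM in the controls. The summed log2 fold change was 0.89 ± 0.30 (SE, adjusted p = 0.0388, edgeR). Hspa1a alone did not pass (0.42 ± 0.68), and its sign turned to -0.06 without fresh library 2 and -0.23 without control library 3. It passed the filter on low counts through 1 control and 2 EPZ5676 libraries and no fresh one.

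The small heat shock protein genes rose the most. Hspb1, which binds unfolded proteins and actin, stood at 5.28, 2.83 and 1.88 TPM in fresh lung and at 12.9, 8.07 and 10.9 TPM in the controls. Hspb8, a partner of the co-chaperone Bag3 in the removal of damaged proteins, stood at 7.37, 4.12 and 5.19 TPM and at 26.3, 17.96 and 10.6 TPM. No control library overlapped a fresh one in either gene, and control library 1 was the highest of the fresh and control libraries in both. That library also had the most heart muscle, smooth muscle, mesenchymal, liver and cartilage markers, and their part in these values was not tested. The log2 fold change was 1.70 ± 0.38 (SE) for Hspb1 (adjusted p = 0.0055, edgeR) and 1.72 ± 0.26 for Hspb8 (adjusted p = 6.8e-04). Without control library 1 they were 1.64 and 1.47, and both calls held in all 21 alternatives. Hspb1 held only 17, 9 and 6 counts in fresh libraries 1, 2 and 3. It reached the cutoff of the filter on low counts in 1 fresh, 3 control and 3 EPZ5676 libraries.

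Hspe1 fell with culture. It was measured at 519, 494 and 530 TPM in fresh lung and at 303, 379 and 316 TPM in the controls, without overlap. Its log2 fold change was -0.59 ± 0.12 (SE, adjusted p = 0.0037, edgeR), and -0.69 ± 0.13 when summed with AC117239.2 (adjusted p = 0.0024). Hspd1, its partner in the mitochondrial chaperonin, fell by 0.80 ± 0.14 on the log2 scale (adjusted p = 0.0012), from 625 ± 61.9 to 357 ± 32.7 TPM (SD, n = 3 each). Whether reads were counted by strand was not stated in the labels, so reads from the 112 shared bases cannot be told apart.

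EPZ5676 explants were also compared with fresh lung. They share the fresh libraries with the comparison above, so the values are set side by side and are not independent. Again 7 of 10 members passed in edgeR, 3 higher and 4 lower, against 40% of all genes tested, 22.1% higher and 17.9% lower. TPM did not overlap for 8 members, 4 higher and 4 lower, against 52.2% of all genes, 25.5% higher and 26.7% lower. At an unadjusted p under 0.05 there were 8 members, against 48.9% of all genes. Hspb1 had a log2 fold change of 2.45 ± 0.37 (SE, adjusted p = 5.4e-04), Hspb8 1.95 ± 0.26 (2.6e-04) and Hspa1b 1.62 ± 0.35 (0.0040). Hspe1 had -0.64 ± 0.12 (adjusted p = 0.0021), Hsp90ab1 -0.39 ± 0.10 (0.0113), Hsp90aa1 -0.54 ± 0.18 (0.0317) and Hsph1 -0.78 ± 0.24 (0.0296). Hspa1a (1.41 ± 0.63, adjusted p = 0.1002), Hspa8 (-0.22 ± 0.14, 0.253) and Dnajb1 (0.20 ± 0.10, 0.153) did not pass, although Hspa1a did not overlap in TPM. The summed Hspa1a and Hspa1b reached 1.57 ± 0.30 (adjusted p = 0.0020). Some calls were lost in alternative analyses. Hsph1 lost its call in 6 of 21 (adjusted p from 0.0023 to 0.135) and Hsp90aa1 in 5 (0.0043 to 0.112), each with no filter and on leaving out fresh library 2 or 3 or EPZ5676 library 1 or 2, and Hsph1 also without control library 1. Hsp90ab1 lost it in 1 (0.0522, without fresh library 2; otherwise lower). Without fresh library 2 only 4 of the 10 members passed.

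EPZ5676 explants were then compared with control explants, which had the same time in culture. None of the 10 members passed in edgeR, and 0% of the 15158 genes tested did, so the members' count says nothing particular to them. Without EPZ5676 library 2 edgeR called 26 genes, with no member among them. At an unadjusted p under 0.05 there was 1 member, Hspb1, against 6.94% of all genes, and no member passed with DESeq2 (which called 83 genes) or limma (0 genes). TPM did not overlap for 2 members, Hspb1 and Hspa1b, both higher with EPZ5676, against 8.23% of all genes tested and 5.64% in that direction. In all, 9 members lay above 0 and Hspe1 below, with a median log2 fold change of 0.22 against -0.0038 over all genes. The signs of Hspa8, Hsp90ab1 and Hspe1 were not stable to leaving out single libraries, and the members' shared direction was not tested.

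Hspb1 stood at 17.0, 22.7 and 15.4 TPM with EPZ5676, each above the highest control library at 12.9 TPM. Its log2 fold change was 0.75 ± 0.33 (SE, 95% interval 0.03 to 1.48), with an adjusted p of 0.709 in edgeR and of 0.536 to 1 over the alternatives. The interval before adjustment therefore ran from 1.02-fold to 2.79-fold. Hspa1b stood at 2.21, 3.71 and 2.69 TPM, just above the highest control at 2.13, with a log2 fold change of 0.57 ± 0.32 (interval -0.13 to 1.28), and 0.30 without EPZ5676 library 2. Hspa1a stood at 0.81, 1.15 and 1.34 TPM, overlapping control library 3, with 0.99 ± 0.60 (interval -0.33 to 2.31), and 1.64 without control library 3. Summed, the pair stood at 3.02, 4.86 and 4.03 TPM, above all 3 controls, and its log2 fold change was 0.68 ± 0.28 (SE, adjusted p = 0.680, edgeR). Hspa1a, Hspb1 and Hspa1b had the widest intervals of the 10 genes on the log2 scale.

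The other members had narrower intervals. Hsp90ab1 stood at 1641, 1520 and 1718 TPM with EPZ5676, within the control range, and its log2 fold change of 0.02 ± 0.10 (SE) had a 95% interval from -0.20 to 0.25. Hspa8 stood at 1095, 1188 and 1330 TPM (0.07 ± 0.14, interval -0.24 to 0.39), and Hspe1 at 344, 303 and 349 TPM (-0.05 ± 0.12, interval -0.32 to 0.22). The signs of these 3 genes turned when single libraries were left out. Hsp90aa1 stood at 618, 647 and 877 TPM (0.21 ± 0.18, interval -0.17 to 0.60), with EPZ5676 library 3 above all controls. Dnajb1 stood at 32.4, 27.8 and 30.8 TPM (0.10 ± 0.10, interval -0.13 to 0.32). Hsph1 stood at 66.1, 85.4 and 87.1 TPM (0.36 ± 0.24, interval -0.19 to 0.91) and Hspb8 at 24.6, 19.7 and 21.3 TPM (0.23 ± 0.24, interval -0.30 to 0.76), both within the control range. Single libraries moved some of these values: Hsp90aa1 to 0.069 without control library 1, 0.34 without EPZ5676 library 1 and 0.019 without EPZ5676 library 3. Hspb8 moved to 0.48 without control library 1 and 0.018 without control library 3. Hsph1 moved to 0.61 without control library 2, 0.15 without control library 3 and 0.24 without EPZ5676 library 3.

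**Figure D2:**
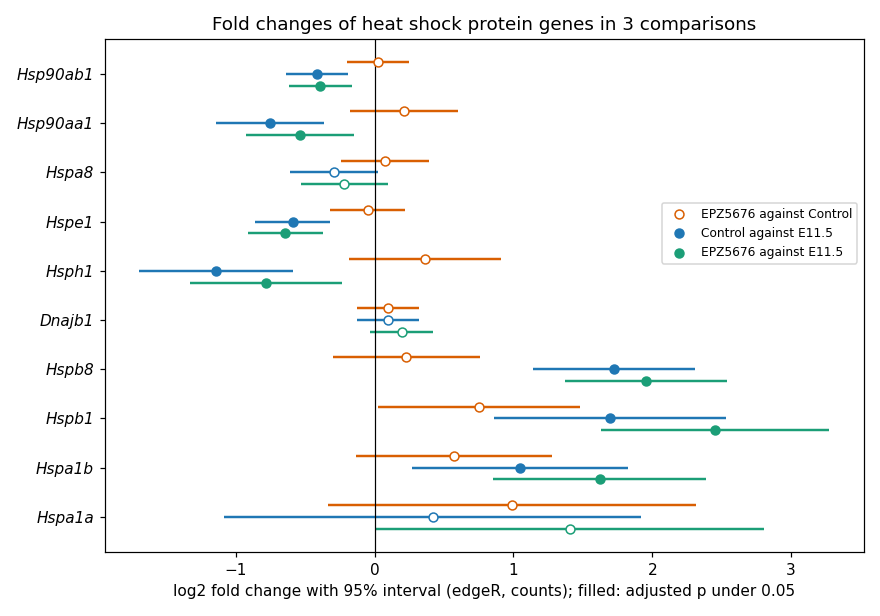
Log2 fold change from counts (horizontal axis, edgeR) with 95% interval for each gene in the 3 comparisons. Filled points have an adjusted p under 0.05. The points for EPZ5676 against Control are all open, between -0.05 and 0.99, while 7 genes are filled in each comparison with fresh lung.

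Ratios of inducible to constitutive paralogs within a library do not depend on library scaling. Hsp90aa1 was 45.4%, 48.9% and 49.9% of Hsp90ab1 by TPM in fresh libraries 1, 2 and 3, 32.0%, 40.0% and 43.5% in the controls and 37.7%, 42.5% and 51.1% with EPZ5676. The controls lay below fresh lung, by 0.33 in mean log2 ratio (exact permutation test, two-sided p = 0.1, adjusted 0.15 over 6 comparisons of ratios), and by 0.20 without control library 1. The EPZ5676 explants overlapped both groups (exact p = 0.5 against Control and 0.4 against fresh lung). The sum of Hspa1a and Hspa1b was a tiny share of Hspa8: 0.135%, 0.0865% and 0.0826% in fresh lung, 0.229%, 0.183% and 0.240% in the controls and 0.276%, 0.409% and 0.303% with EPZ5676. These groups did not overlap, and the mean log2 ratio was higher in the controls than in fresh lung by 1.13 and higher with EPZ5676 than in the controls by 0.59. Each of these differences had an exact permutation p of 0.1 (adjusted 0.15), the smallest that 3 libraries against 3 allow. Leaving out single libraries, the first ranged from 1.00 (without fresh library 3) to 1.35 (without fresh library 1). The second ranged from 0.42 (without EPZ5676 library 2) to 0.71 (without EPZ5676 library 1). The pair held only 14 to 61.3 counts per library, and Hspa8 shares reads with Gm15459.

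**Figure D3:**
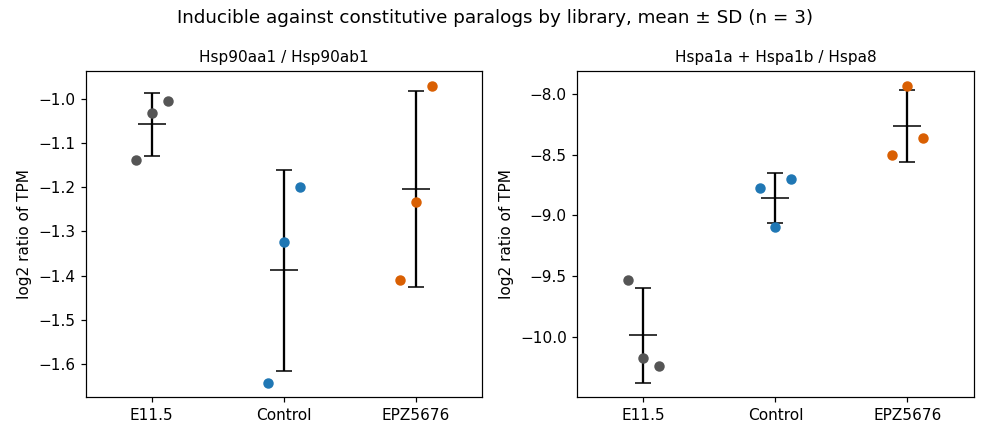
Log2 ratio of TPM of inducible to constitutive paralogs (vertical axes, not starting at 0) in each library, with mean ± SD (n = 3 per group). The ratio of Hspa1a plus Hspa1b to Hspa8 separated all 3 groups, from a mean of -9.98 in fresh lung to -8.86 in Control and -8.27 with EPZ5676, while that of Hsp90aa1 to Hsp90ab1 overlapped between the cultured groups.

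The deposited counts and TPM gave unequal sizes for the fall of the HSP90 genes. For Control against fresh lung, the log2 ratio of mean TPM was -0.63 for Hsp90ab1 and -0.96 for Hsp90aa1, beyond the -0.42 and -0.75 from counts. Count divided by TPM gives the transcript length that the estimation implied, and it was scaled here by 524 genes with a single annotated transcript. The middle 95% of their values lay between 98.3% and 102% of each gene's mean over all 9 libraries. The members are instead given as a percent of their fresh mean. For Hsp90ab1 the implied length was 98.2% to 101% of the fresh mean in fresh lung, 113% ± 3.1 in the controls and 111% ± 4.6 with EPZ5676 (SD, n = 3), with no cultured library inside the fresh range. For Hsp90aa1 it was 96.1% to 104% in fresh lung, 111% ± 3.3 and 109% ± 0.82, again without overlap. Both genes have 8 annotated transcripts in GENCODE M21. Hspa8 moved the other way, with 97.8% to 102% in fresh lung, 92.1% to 96.7% in the controls, wholly below it, and 94.3% to 99.0% with EPZ5676, which overlapped it. Hsph1, with 11 annotated transcripts, varied by 10.3 percentage points (SD, n = 3) already in fresh lung and stood at 112% ± 7.9 with EPZ5676, and Hspe1, Dnajb1 and Hspa1b stayed within 2 percentage points of their fresh mean in every group mean. This measure was chosen after its values were seen, it was not tested, and transcript levels were not analysed here.

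**Figure D4:**
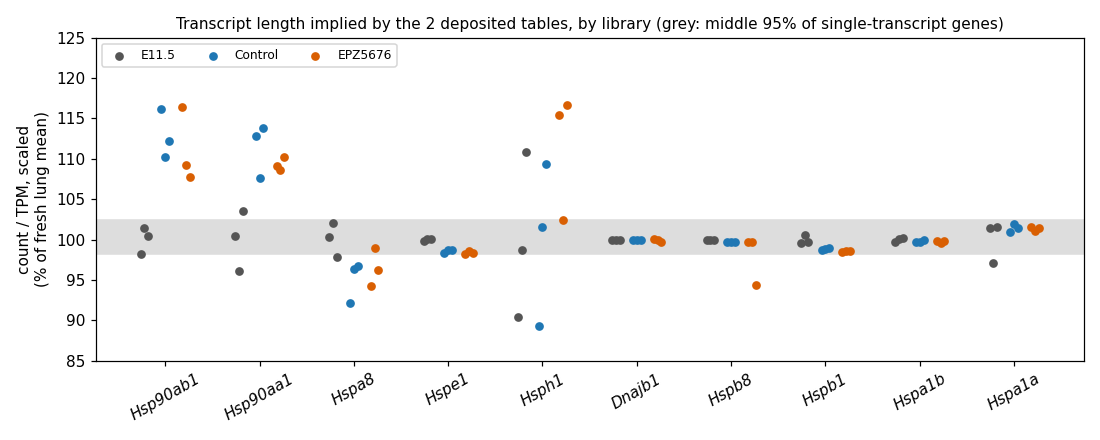
Count divided by TPM, as a percent of the gene's fresh lung mean (vertical axis, not starting at 0), for each library and gene. The grey band holds the middle 95% of 524 single-transcript genes, 98.3 to 102, as a percent of each gene's mean over all 9 libraries. All 6 cultured libraries lay above the band and above the fresh libraries for Hsp90ab1 and Hsp90aa1.

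Genes that work with the heat shock proteins were taken as 9 lists with 86 genes. In EPZ5676 against control explants no gene of any list passed in edgeR. The change with culture differed from list to list. Of 14 HSP90 co-chaperones, 10 fell and none rose in Control against fresh lung, with a median log2 fold change of -0.40 against 0.02 over all genes. These were led by Fkbp5, an immunophilin that tunes steroid receptors (-1.17 ± 0.15 SE), Ppid (-0.81 ± 0.11) and Nudc (-0.56 ± 0.09). Without single libraries or with another setting 6 to 11 of them fell, with 6 when fresh library 3 was left out. With EPZ5676 against fresh lung 7 fell (4 to 11 over the alternatives). Of the 8 subunits of the TRiC/CCT chaperonin, which folds actin and tubulin, 4 fell and none rose (3 to 7 over the alternatives), among them Cct6a (-0.64 ± 0.12) and Cct8 (-0.62 ± 0.13), and 5 fell with EPZ5676 (3 to 7). All of these had an adjusted p under 0.05 in edgeR, against 16.6% and 17.9% of all genes that fell in the respective comparison.

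Some other small heat shock proteins also rose. Of 8 listed genes 4 could be tested, and 3 rose in Control against fresh lung (2 to 4 over the alternatives), where 21.1% of all genes tested rose. The 2 came with the filter of 50 counts, under which 3 genes were tested. Of the untested genes, Hspb9 went the other way. It stood at 1.22, 1.28 and 0.94 TPM in fresh lung and at 0, 0 and 0.74 TPM in the controls. Cryaa, Hspb2 and Hspb3 were at 0 in all or most fresh libraries. Hspb7, which was tested, was also low in fresh lung, at 0.09 to 0.73 TPM. Hspb6 went from 2.98 ± 0.70 to 11.2 ± 0.89 TPM (SD, n = 3 each; log2 fold change 1.96 ± 0.24 SE), Hspb7 from 0.38 ± 0.33 to 2.74 ± 1.4 TPM (2.92 ± 0.53) and Cryab from 5.09 ± 2.6 to 14.5 ± 5.2 TPM (1.69 ± 0.41). Hspb6, Hspb7 and Cryab are known for their high levels in muscle as well, and the smooth muscle markers, at 218 to 427 TPM in fresh lung, reached 398 to 838 TPM in culture; their part in the rise was not tested. Bag3, the partner of Hspb8, rose by 0.97 ± 0.14 (adjusted p = 4.4e-04, edgeR), from 12.5 ± 1.3 to 23.7 ± 1.7 TPM, as 1 of 9 exchange factors and BAG proteins, while Bag1 fell by 0.28 ± 0.10 (adjusted p = 0.0471). The all-gene shares were 21.1% higher and 16.6% lower.

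Among 8 other HSP70 and HSP110 genes, 4 fell and none rose in Control against fresh lung, where 16.6% of all genes tested fell and 21.1% rose. Hspa4, another HSP110 gene, fell from 277 ± 41.9 to 150 ± 11.2 TPM (SD, n = 3 each; log2 fold change -0.67 ± 0.10 SE, adjusted p = 4.1e-04, edgeR). Hspa4l, also of the HSP110 kind, stood at 6.04, 6.73 and 7.43 TPM in fresh lung, 9.90, 9.03 and 8.83 TPM in the controls and 18.9, 15.3 and 25.4 TPM with EPZ5676. The 3 groups did not overlap. Of all genes tested, 44.4% did not overlap in Control against fresh lung and 8.23% in EPZ5676 against Control. Against fresh lung Hspa4l rose with EPZ5676 (1.73 ± 0.24, adjusted p = 3.9e-04, edgeR). In Control against fresh lung it did not pass (0.63 ± 0.24, adjusted p = 0.0659, edgeR). Against the controls its log2 fold change with EPZ5676 of 1.11 ± 0.23 had an unadjusted p of 7.3e-04 and did not pass (adjusted p = 0.252, edgeR).

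Of the heat shock factors, Hsf1 stood at 32.2 ± 1.2 TPM in fresh lung, 34.3 ± 9.2 in the controls and 31 ± 3.7 with EPZ5676 (SD, n = 3 each). Its log2 fold change in Control against fresh lung was 0.06 ± 0.12 (SE, adjusted p = 0.710, edgeR). Hsf2 fell by 0.33 ± 0.11 (adjusted p = 0.0381), and Hsbp1, which binds and restrains HSF1, rose by 0.37 ± 0.10 (adjusted p = 0.0132). Of 10 J-domain genes 1 rose and 3 fell, with Dnajc2, a partner of HSP70 at the ribosome, at -0.79 ± 0.11, against 21.1% and 16.6% of all genes tested. Of 11 mitochondrial chaperones and proteases 2 fell, Hspd1 and Trap1 (-0.29 ± 0.08), a share close to the 16.6% of all genes, and none rose. Of 13 immediate early and oxidative stress genes 9 rose and none fell, against 21.1% of all genes that rose. Over the alternatives 7 to 9 rose and 0 to 1 fell, with 1 when control library 3 was left out. The genes that rose included Hmox1, the heme oxygenase, from 9.79 ± 0.73 to 39.6 ± 8.2 TPM (2.04 ± 0.18) and Junb from 1.83 ± 0.13 to 11.2 ± 2.3 TPM (2.67 ± 0.33).

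**Figure D5:**
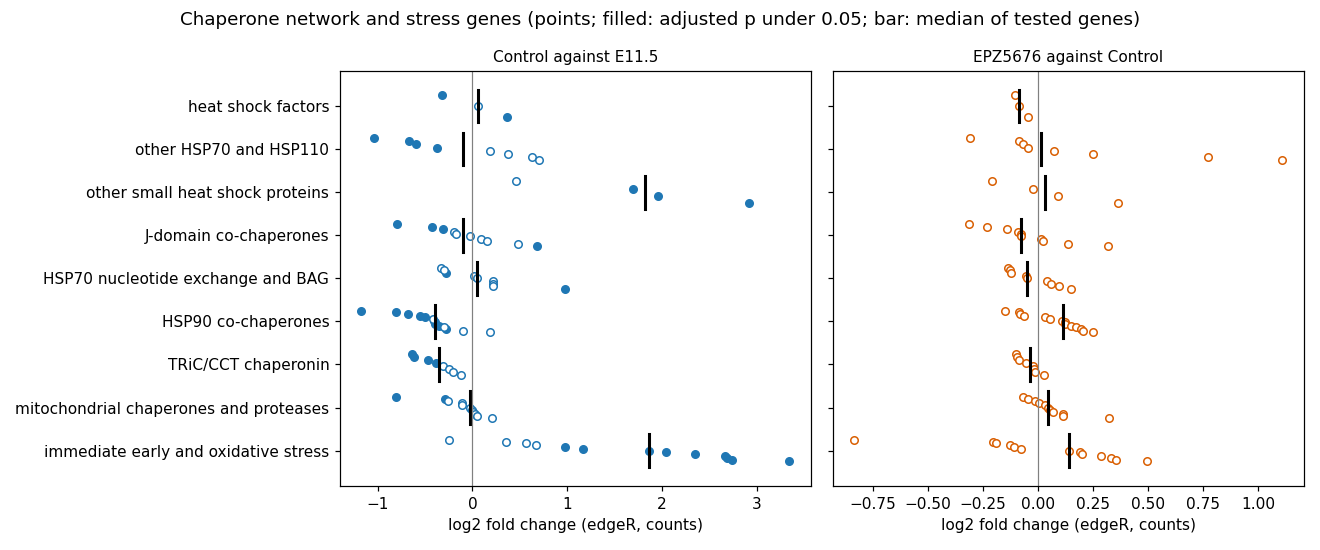
Log2 fold change from counts (horizontal axes, edgeR, different ranges) of each tested gene in 9 lists of chaperone and stress genes, with the list's median as a bar. Filled points have an adjusted p under 0.05. HSP90 co-chaperones lay mostly below 0 in Control against E11.5 (median -0.40), the other small heat shock proteins lay above it (median 1.83), and no point is filled in EPZ5676 against Control.

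Across the 9 libraries the level of each member, as log2 CPM (counts scaled to library size), was set against that of every other tested gene. These correlations share the large step between fresh and cultured lung and are given as a description. The gene most like Hsph1 was Stip1, the adaptor between HSP70 and HSP90 (Pearson r = 0.987, 9 libraries), and that most like Hspb8 was Cavin1, a coat protein of caveolae (r = 0.995). Hspa8 was followed by Setdb1 (0.974) and by its own copy Gm15459 (0.974). The most similar gene was Kif4 for Hspe1 (0.988), Trim25 for Hspb1 (0.989), Zmym1 for Hsp90ab1 (0.990), Alpl for Hsp90aa1 (0.988) and Slfn2 for Hspa1b (0.971). After group means were removed, so that only differences between libraries of a group remained, Hspa8 went with Hsp90aa1 (r = 0.90, 9 libraries) and Hsph1 with Hsp90ab1 (0.85). Hspb1 and Dnajb1 went in opposite directions (-0.89), and Hspa1a and Hspa1b had an r of -0.31. Apart from Hspa1a with Hspa1b, the pairs named were the extremes among all pairs of members, and none was tested. Genes outside the members reached higher r on this measure, such as Ckap5 with Hspa8 (0.988).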

How the data were processed

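The files deposited by the authors give each gene's expected counts, which are estimates and not always whole, and its TPM. The deposited TPM correct for transcript length and sum to 998977 to 999233 in each library. Per the submitters' processing notes RSEM, Bowtie2 and the build mm10 were used, with no versions or roles. Groups and replicate numbers came from the sample labels. The 10 members and all gene lists were chosen with earlier results of these data known.

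Expected counts were rounded, filtered with filterByExpr (minimum count 10, leaving 15158 genes) and scaled by TMM. The groups were fitted together on all 9 libraries (6 residual degrees of freedom). Quasi-likelihood F tests, robust and in the legacy form, were run in edgeR 4.0.16 under R 4.3.3. They were two-sided, with p-values adjusted by Benjamini-Hochberg over all genes tested and called under 0.05. Each SE was obtained from the F statistic, and log2 CPM used a prior count of 2. Ratios within a library were tested with an exact permutation test. Fold changes come from counts and levels from TPM.

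Genes named are the 10 members, from each pathway list up to 3 genes with the smallest p in a comparison, and from the correlations up to 3 genes per member; others are said to be chosen after their values were seen. Alternatives were RLE and upper-quartile scaling, a newer quasi-likelihood method, no filter or 50 counts in 3 libraries, only the 6 libraries compared, a replicate block, DESeq2 1.42.0, limma 3.58.1 on log2(TPM + 1) and log2(TPM + 0.1), Hspa1a and Hspa1b summed, and leaving out each library. Summing Hspa8 and Hspe1 with their copies was chosen after seeing the data. The scripts were tested on simulated data. Positions are from GENCODE M21 (GRCm38, the assembly of mm10) and figures were drawn with matplotlib 3.10.9. Replicates differed by more than sampling noise (chi-square per degree of freedom 2.69 to 31.1). Depth was 6509563 to 9861452 counts.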

Additional observations from a re-analysis of the deposited data

How the results depend on the processing

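Low counts and shared sequence both limit the Hspa1a and Hspa1b values (Hspa1a took 9.79% to 48.9% of the pair's counts), and 3 libraries per group limit all comparisons. Among the members' fold changes recomputed for Control against fresh lung, 10 lost a call, all of Hspa1b, 1 gained a call and 2 turned sign. For EPZ5676 against fresh lung 12 lost a call, and for EPZ5676 against Control 6 turned sign. Leaving out single libraries, 4 to 7 members passed for EPZ5676 against fresh lung, 6 to 7 for Control against fresh lung and 0 for EPZ5676 against Control. Hspa1a in Control against fresh lung ranged from -0.23 to 0.74 in log2 fold change. In EPZ5676 against Control and on the same omissions, Hspa8 ranged from -0.029 to 0.190, Hsp90ab1 from -0.027 to 0.097 and Hspe1 from -0.19 to 0.040. The number of genes called in EPZ5676 against Control, 0, became 83 with DESeq2, 76 without the filter, 1 with the replicate block and 0 to 26 on leaving out single libraries (26 without EPZ5676 library 2), none of them a member. The cause of these changes was not tested.

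Same-numbered libraries did not deviate together throughout (r from -0.10 to 0.46, against -0.36 to 0.26 for other pairs). The highest r was that of Control library 1 with EPZ5676 library 1. With 3 libraries per group these values cannot tell whether the replicate numbers pair libraries. With the replicate number as a block, 8 members passed in Control against fresh lung (Hspa8 was added, log2 fold change -0.29, adjusted p = 0.0275, against 0.0275 to 0.338 over its alternatives), 7 in EPZ5676 against fresh lung and 0 in EPZ5676 against Control.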
